A study of Homo sapiens with 4 samples.

Results

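Cadherin and desmosome genes build the junctions that hold epithelial cells together. The 10 genes described here are CDH1, CDH3, DSG2, DSG3, DSC2, DSC3, DSP, JUP, PKP1 and PKP3. Every region of the ATAC-seq table whose gene symbol was one of these names was taken, at promoters and elsewhere, which gave 57 of 58127 regions, and each of the 10 genes had at least 1. The members were picked by name, with earlier results of these data known. A region carries the symbol of the nearest transcription start site, so a distal region is described by that start site and need not act on the gene. The start and end of each region were not used, so a region is given by chromosome and distance to the start site (hg19), and levels of different regions are not compared per length, since lengths are unknown here. A region called that of highest mean has the highest mean normalized count of its gene's regions, whatever its length.

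ATAC-seq, which reads where a transposase can cut open DNA, was done on MCF10A, a human cell line from mammary epithelium that does not form tumours. The 2 labelled groups are MCF10A with a hairpin against the long noncoding RNA SNHG8d (shG8d) and MCF10A with a control hairpin (shNC), with 2 libraries each, lettered A and B. How the hairpins were delivered, for how long, and whether the libraries came from separate cultures is not given in the sources used here, so the p-values reflect no more than the variation among these libraries, which may be technical. The table puts regions in a common set, an shNC-specific set and an shG8d-specific set, and the column labels change places between the common and the specific sets. The value of 1 read in each column recurs from set to set, and libraries were followed across sets by it alone, which is an assumption. They are named by it as the deeper pair (labelled shG8d in the common set and shNC in both specific sets) and the shallower pair (labelled shNC in the common set and shG8d in both specific sets). A direction compared between the common and a specific set, and a count over both, rests on this, and by the deposited labels the sign of either kind of set would be turned. Which labelling is right was not settled, so no direction is assigned to the knockdown, and each difference below is the deeper minus the shallower pair. In bulk ATAC-seq, a region open in more cells and a region more open per cell cannot be told apart.

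Reads in regions came to 8124488 (A) and 8111839 (B) in the deeper pair, against 4457248 (A) and 4344212 (B) in the shallower pair. The median region held 65 (A) and 68 (B) reads in the deeper pair, against 48 (A) and 49 (B) in the shallower pair. The pairs thus differed less in the median than in the total, and the highest count of a region was 373100 reads. The setting of equal library totals used below scales by the totals. Values below are the authors' normalized counts, in which 1 read is worth 0.842 (A) and 0.807 (B) in the deeper pair and 1.21 (A) and 1.17 (B) in the shallower pair. The member regions held between 7 and 367 reads per library. Of 6 basal epithelial markers, 5 had a promoter region (KRT5, KRT14, KRT17, EGFR and LAMB3), and TP63 had 11 regions but none at a promoter. None of 7 markers of blood, endothelium, fibroblasts and muscle had a promoter region, though they had 15 regions elsewhere, 7 of them at CDH5. The summed promoter signal of the epithelial markers was 1022 and 901 normalized counts in the deeper pair, against 865 and 825 in the shallower pair.

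E-cadherin (CDH1) and P-cadherin (CDH3) are classical cadherins of adherens junctions, which bind cadherins of the neighbouring cell and link through catenins to actin. Desmogleins (DSG2, DSG3) and desmocollins (DSC2, DSC3) are the cadherins of desmosomes. Plakoglobin (JUP) and plakophilins (PKP1, PKP3) bind their tails, and desmoplakin (DSP) ties the plaque to keratin filaments. In mammary epithelium these junctions keep the layers of the duct attached to each other, and loss of E-cadherin is a mark of epithelial-mesenchymal transition.

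The following promoter windows of DSC2, DSC3, DSP and JUP are shown because regions at their start sites passed the test. Each runs from 250 bases before to 50 after a start site in RefSeq (GRCh38.p14, not the build of the table), read 5′ to 3′ on the gene's strand. RefSeq lists 2 starts each for JUP, both shown, and DSC2, of which the upstream one is shown. Which of these starts the regions of the table lie at was not matched. The DSG2 region that passed is not shown, since it is given as 245 bp from the start, beyond the 50 bases of a window. Whether it reaches into the window is unknown, as region lengths were not used. CDH1 is named only. Of the 10 genes, 7 matched a symbol, with 9 windows. Capitals mark CAGGTG (an E-box that SNAIL and ZEB repressors can bind) and GGGCGG (a GC box), on either strand, with abutting matches run together.
DSC2, chr18:31102372-31102671, minus strand: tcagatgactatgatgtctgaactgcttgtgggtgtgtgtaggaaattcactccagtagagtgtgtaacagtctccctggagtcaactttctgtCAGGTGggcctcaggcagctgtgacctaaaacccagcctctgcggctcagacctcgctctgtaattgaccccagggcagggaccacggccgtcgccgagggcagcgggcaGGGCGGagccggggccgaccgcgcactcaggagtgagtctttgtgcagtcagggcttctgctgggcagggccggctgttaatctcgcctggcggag
DSC3, chr18:31042693-31042992, minus strand: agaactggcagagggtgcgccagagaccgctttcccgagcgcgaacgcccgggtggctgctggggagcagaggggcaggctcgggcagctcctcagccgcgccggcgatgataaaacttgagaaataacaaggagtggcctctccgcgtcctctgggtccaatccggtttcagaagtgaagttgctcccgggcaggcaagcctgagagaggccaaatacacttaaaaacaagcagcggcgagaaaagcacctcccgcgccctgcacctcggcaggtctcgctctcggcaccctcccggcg
DSP, chr6:7541421-7541720, plus strand: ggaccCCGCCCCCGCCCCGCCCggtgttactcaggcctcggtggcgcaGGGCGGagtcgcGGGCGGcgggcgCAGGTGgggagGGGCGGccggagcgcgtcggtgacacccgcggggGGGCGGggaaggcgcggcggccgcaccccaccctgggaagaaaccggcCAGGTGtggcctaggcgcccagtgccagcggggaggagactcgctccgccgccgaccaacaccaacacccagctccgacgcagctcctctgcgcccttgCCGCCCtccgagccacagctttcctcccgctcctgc
JUP, upstream start, chr17:41786662-41786961, minus strand: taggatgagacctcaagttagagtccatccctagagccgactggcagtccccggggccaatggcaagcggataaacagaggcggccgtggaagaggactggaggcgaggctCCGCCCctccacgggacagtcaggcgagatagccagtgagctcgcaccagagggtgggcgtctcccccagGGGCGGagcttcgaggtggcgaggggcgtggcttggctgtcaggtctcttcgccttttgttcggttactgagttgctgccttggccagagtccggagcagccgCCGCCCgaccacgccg
JUP, downstream start, chr17:41785927-41786226, minus strand: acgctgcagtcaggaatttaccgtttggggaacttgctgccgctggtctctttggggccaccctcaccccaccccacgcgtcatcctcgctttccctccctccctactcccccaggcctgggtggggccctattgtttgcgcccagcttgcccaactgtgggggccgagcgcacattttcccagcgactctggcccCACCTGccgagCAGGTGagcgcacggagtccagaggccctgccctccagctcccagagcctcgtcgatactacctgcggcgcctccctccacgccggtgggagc
The DSP window held 2 E-boxes and 8 GC boxes, the DSC2 window shown 1 of each, and the DSC2 window at the downstream start no E-box and 2 GC boxes. The downstream JUP window held 2 E-boxes and no GC box, the upstream one 3 GC boxes and no E-box, and the DSC3 window neither. Over all 35116 RefSeq windows, 20.6% held CAGGTG and 45% held GGGCGG. The AP-1 motif TGANTCA was in 7.71% of all windows and in none of the 9 member windows. The GC content was 77.0% at DSP, 60.7% at the upstream DSC2 start, 63.3% at DSC3, and 65.3% and 66.7% at the upstream and downstream JUP starts, against a median of 58.7% over all windows. A match describes letters only and is no sign of binding.

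Of the 57 member regions, 13 were higher in the deeper pair and 2 lower (limma, adjusted p under 0.05 over the whole table), where 11.1% of all regions were called higher and 12.4% lower. The calls higher belong to CDH1, CDH3, DSP, DSG2, DSC3, PKP1 and JUP. The calls lower are the DSC2 promoter and 1 upstream region of CDH1, and no region of DSG3 or PKP3 passed. The median log2 difference was 0.23 over the member regions, against −0.02 over all regions. Both deeper libraries stood above both shallower ones at 27 of the 57 regions, where 30.5% of all regions did so, and below both at 10, where 32.9% did. In the common set 9 of 34 member regions were higher and 1 lower, where 10.7% and 15% of all common regions were. In the specific sets 4 of 23 were higher and 1 lower, where 11.7% and 8.83% were. All 4 calls higher are among the 21 shNC-specific regions, where 13.2% of that set were called higher and 0.979% lower. The call lower is 1 of 2 shG8d-specific regions, where 70% of that set were called lower and 0.0363% higher.

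**Figure D1:**
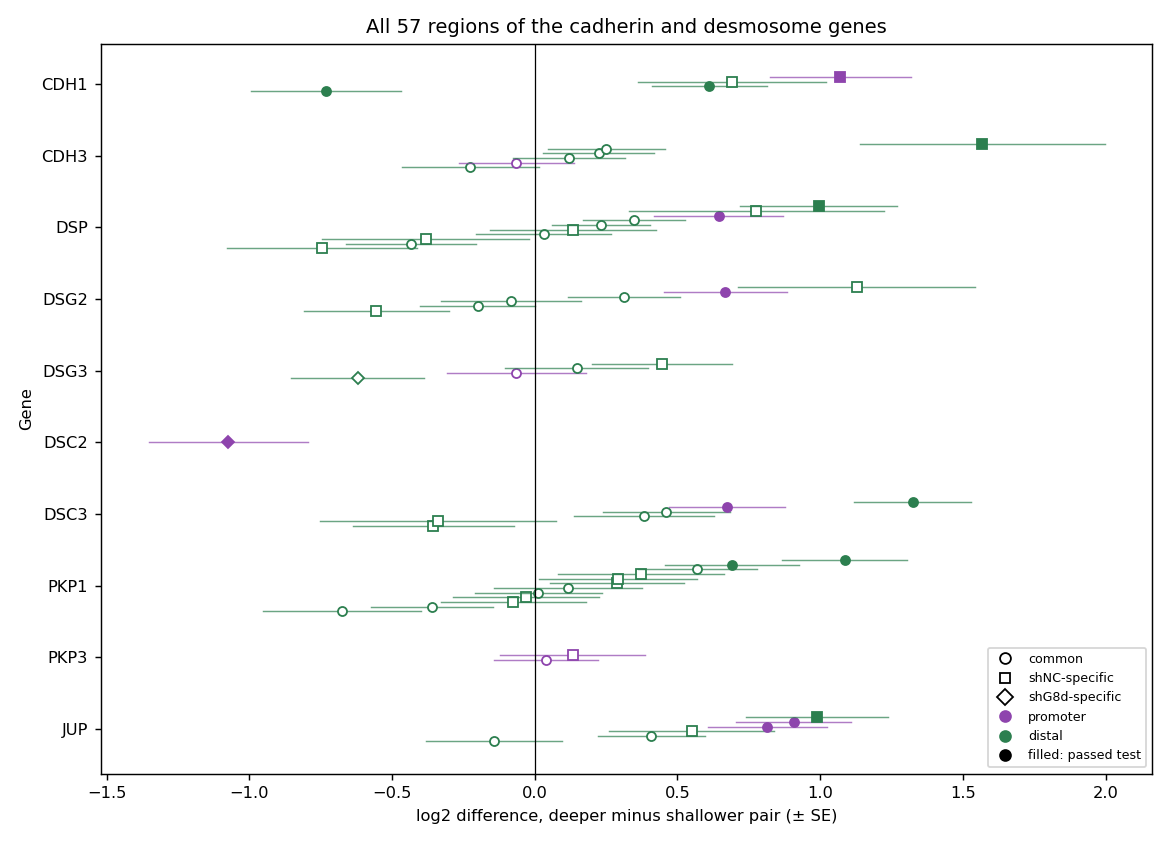
Log2 difference, deeper minus shallower pair, with its SE (x axis) for each of the 57 regions by gene (y axis). Point shapes give the region set, colours separate promoter and distal regions, and filled points passed the test. The 13 regions called higher lie right of 0, and the DSC2 promoter (−1.07) and an upstream region of CDH1 (−0.73) lie left of it.

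Promoter regions were those annotated as promoters or within 1000 bp of a start site. Of 11 member promoter regions 6 were higher and 1 lower, where 19.4% of all promoter regions were higher and 11.5% lower. Of 46 distal member regions 7 were higher and 1 lower, where 8.76% and 12.7% of all distal regions were. Both deeper libraries stood above both shallower ones at 3198 of all 8817 common promoter regions. A lack of overlap at a region that passed the test adds little to the call. The member counts rest on single libraries and on the scaling, and the counts over all regions changed with these as well. Without the deeper pair's A, 5 member regions were higher and 1 lower, and without its B, 3 and 0. Without the shallower pair's A, 17 were higher and 3 lower, and without its B, 10 and 2. With no scaling other than equal library totals, which moved the median of all regions by −0.35, 5 were higher and 8 lower. Of all 58127 regions, 2580 were then called higher and 16343 lower, against 6477 and 7220 with the authors' scaling. The shallower pair's B was below its A at all 13 regions called higher, as at 72.3% of the 6477 regions called higher in the whole table and 50.4% of all regions. The part of that library in these results was not tested beyond leaving it out.

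CDH1, on chromosome 16, had 4 regions, 2 common and 2 shNC-specific. Of these, 2 were called higher and 1 lower, where 11.1% and 12.4% of all regions were. The promoter region, 30 bp upstream of the start and in the shNC-specific set, where the deeper pair is labelled shNC, had 90.9 and 104 normalized counts in the deeper pair, against 48.3 and 43.4 in the shallower pair. As at 1977 of all 3683 shNC-specific promoter regions, both deeper libraries stood above both shallower ones. The deeper mean was 2.13-fold the shallower mean. The log2 difference was 1.07 (SE 0.247, adjusted p = 0.00490), in a set where 26.7% of promoter regions were called higher and 1.11% lower. It remained past the threshold with equal library totals (adjusted p = 0.0332) but not without the deeper pair's B (0.0767). How regions were put in the specific sets is not given, and the choice may have used these libraries.

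An intergenic region 5082 bp upstream of the CDH1 start, in the common set, was lower in the deeper pair, with 46.3 and 41.2 normalized counts in the deeper pair, against 72.5 and 73.8 in the shallower pair. The groups did not overlap there, and the log2 difference was −0.73 (SE 0.263, adjusted p = 0.0493). That call was lost whichever library was left out, with adjusted p of 0.157 and 0.248 without the deeper A and B and of 0.0546 and 0.0812 without the shallower A and B. By the labels in the authors' deposited table, the log2 fold change of shG8d over shNC is negative at both the CDH1 promoter (−1.09) and this region (−0.74), so their order depends on how libraries are followed between sets. Farther up, 29678 bp from the CDH1 start, a common region had 251 and 220.3 normalized counts in the deeper pair against 189.7 and 124 in the shallower pair. The deeper pair was higher without overlap (log2 difference 0.61, SE 0.202, adjusted p = 0.0344). It did not pass without the deeper A (0.275) or B (0.101), without the shallower B (0.189) or with equal library totals (0.337). The remaining CDH1 region, shNC-specific and 32796 bp upstream, had 56.4 and 44.4 normalized counts in the deeper, against 24.2 and 38.7 in the shallower pair, which did not pass (adjusted p = 0.133).

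CDH3, the neighbour of CDH1 on chromosome 16, had 6 regions, of which 1 passed. Its start-site region, in the 5′ UTR of exon 1 of 15 and 382 bp from the start, had 109 and 109 normalized counts in the deeper pair, against 117 and 111 in the shallower pair. Both deeper libraries were below both shallower ones by a small margin, with a log2 difference of −0.06 (SE 0.202, adjusted p = 0.847). The CDH3 region of highest mean, in intron 2 of 15 and 13808 bp from the start, had 166 and 189.6 in the deeper pair, against 191 and 139 in the shallower pair, so the groups overlapped (adjusted p = 0.696). The region that passed is an shNC-specific intergenic one 38873 bp upstream, with 45.4 and 32.3 normalized counts in the deeper pair, against 18.1 and 8.20 in the shallower pair. It had the largest log2 difference among the members, 1.57 (SE 0.429, adjusted p = 0.0135), on 54 and 40 reads in the deeper, against 15 and 7 in the shallower pair. The call was lost without the deeper A (adjusted p = 0.288) and without the deeper B (0.0835). The other 3 CDH3 regions lay between −0.23 and 0.25.

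The desmosomal cadherins DSG2, DSG3, DSC2 and DSC3 lie in 1 cluster on chromosome 18. Their 17 regions gave 3 calls higher (2 at DSC3 and 1 at DSG2) and 1 lower (DSC2). That is 17.6% higher and 5.88% lower, where 11.1% and 12.4% of all regions were. The DSC2 and DSC3 promoters were called in opposite directions with libraries followed by read value. In the authors' deposited table, with the labels of each set, the log2 fold change of shG8d over shNC is positive at both, 1.09 at DSC2 and 0.67 at DSC3. DSC2 encodes a desmocollin found in desmosomes of most epithelia, and DSC3 one that is prominent in the basal layers of stratified epithelia. The DSC2 promoter, 26 bp upstream of the start and the gene's single region, had 42.1 and 31.5 normalized counts in the deeper pair, against 84.6 and 71.5 in the shallower pair. It is in the shG8d-specific set, where the shallower pair is labelled shG8d and where 69.6% of promoter regions were called lower in the deeper pair and 0.192% higher. The fold was 0.471 and the log2 difference −1.07 (SE 0.279, adjusted p = 0.00994). Without the deeper pair's B the adjusted p was 0.106.

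The DSC3 promoter, 37 bp upstream of the start in the common set, had 178 and 164 normalized counts in the deeper pair, against 123 and 92.6 in the shallower pair. Both deeper libraries were above both shallower ones (1.59-fold, log2 difference 0.67, SE 0.202, adjusted p = 0.0215). The call was lost without the deeper A (adjusted p = 0.207), without the deeper B (0.102), without the shallower B (0.0609) and with equal library totals (0.238). The lowest p of the member regions was at a common intergenic region 139076 bp downstream of the DSC3 start. There the deeper pair had 185 and 178 normalized counts and the shallower pair 78.5 and 65.6, which is 2.52-fold (log2 difference 1.32, SE 0.204, adjusted p = 0.000270). This DSC3 region passed in each of the settings tried, with an adjusted p of 0.0174 without limma's mean-variance trend as the highest. The other 4 DSC3 regions did not pass. They were at 0.46 in intron 9 of 16 and 0.38 at 55190 bp downstream, both common, and at −0.34 and −0.36 at 21481 and 4344 bp upstream, both shNC-specific.

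DSG2, the desmoglein of simple as well as stratified epithelia, was called at its start-site region, which lies in the 5′ UTR of exon 1 of 15, 245 bp from the start. That common region had 141 and 156 normalized counts in the deeper pair, against 111 and 77.3 in the shallower pair, without overlap (log2 difference 0.67, SE 0.216, adjusted p = 0.0312). The call was lost without the deeper A (0.129), without the deeper B (0.223), without the shallower B (0.129) and with equal library totals (adjusted p = 0.280). The DSG2 region of highest mean, in intron 1 of 14 and 14595 bp from the start, had 139.7 and 159 in the deeper pair, against 111 and 129 in the shallower pair (adjusted p = 0.258). Of the remaining DSG2 regions, the one 9222 bp upstream came closest to the threshold, with 51.3 and 43.6 in the deeper pair, against 12.1 and 36.3 in the shallower pair (log2 difference 1.13, SE 0.414, adjusted p = 0.0543). The shallower libraries lie far apart at this region, which is shNC-specific.

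DSG3, the desmoglein targeted by autoantibodies in pemphigus vulgaris, had no call in 4 regions. Its promoter region, 87 bp upstream, had 64.0 and 88.8 normalized counts in the deeper pair, against 73.7 and 84.4 in the shallower pair, which overlap (log2 difference −0.06, SE 0.243, adjusted p = 0.876). The DSG3 region of highest mean, 6566 bp into intron 1 of 15, had 99.3 and 118 in the deeper pair, against 72.5 and 131 in the shallower pair, which overlap as well. Nearer to the start in the same intron, an shG8d-specific region at 2689 bp had 70.7 and 58.9 in the deeper pair, against 109 and 91.4 in the shallower pair (log2 difference −0.62, adjusted p = 0.0604). An shNC-specific one at 4098 bp had 86.7 and 80.7 in the deeper pair, against 53.2 and 70.3 in the shallower pair (0.45, adjusted p = 0.196). At both, the order of the libraries followed the name of the set, and neither passed. Both deeper libraries were below both shallower ones at 2609 of all 2755 shG8d-specific regions. They were above both at 8540 of all 21459 shNC-specific regions.

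**Figure D2:**
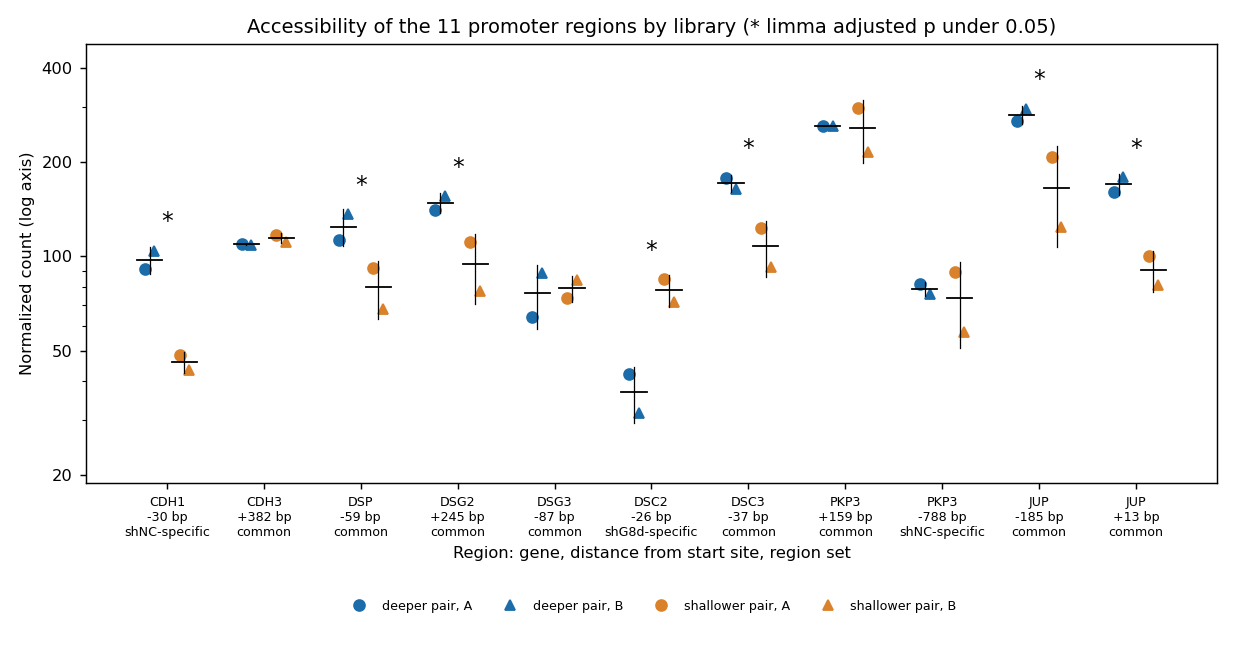
Normalized counts (log axis) of the 11 promoter regions by library, with the deeper pair left of the shallower pair. Horizontal lines are means and vertical lines SD (n = 2 each), and an asterisk marks an adjusted p under 0.05 (limma). The deeper libraries lie above the shallower at CDH1, DSP, DSG2, DSC3 and both JUP regions and below them at DSC2 and, without passing the test, at CDH3.

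Plaque protein genes held 30 regions, of which 7 were higher in the deeper pair and 0 lower. Over all regions 11.1% were called higher and 12.4% lower. The plaque regions are 17 common and 13 shNC-specific, sets in which 15% and 0.979% of all regions were called lower. None is shG8d-specific, where 70% were called lower, so the share over all regions is not a like comparison for the lower calls. The limma fit gave an unadjusted p under 0.05 with a negative difference at 2 plaque regions, which lie 12291 bp downstream of the DSP start and 15563 bp upstream of the PKP1 start. With equal library totals both were called lower (limma, adjusted p = 0.0179 and 0.00904). So were the regions 72859 bp upstream of DSP (0.0154) and 24676 bp downstream of PKP1 (0.0175). Of the 7 plaque regions called higher, the JUP region at 13 bp (0.0452) and the PKP1 region 8004 bp upstream (0.0125) alone kept their call under that scaling. JUP, the plakoglobin gene on chromosome 17, is shared by desmosomes and adherens junctions and had 3 of the 7 calls higher. Its promoter region 185 bp upstream of a start site had 271 and 296 normalized counts in the deeper pair, against 208 and 124 in the shallower pair (log2 difference 0.81, SE 0.208, adjusted p = 0.00921). Its second promoter region, 13 bp downstream of a JUP start, had 161 and 179 in the deeper pair, against 100.3 and 80.8 in the shallower pair (0.91, SE 0.203, adjusted p = 0.00408). The libraries did not overlap at either region. Both are common regions, where 17.4% of promoter regions were called higher, and the deeper pair is labelled shG8d there. Neither passed without the deeper pair's B (adjusted p of 0.0813 and 0.0699), and the JUP region at 185 bp did not pass with equal library totals (0.0893), where that at 13 bp did (0.0452).

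An intron region of JUP 13702 bp from the start, in intron 1 of 14 and shNC-specific, had 110.2 and 86.3 normalized counts in the deeper pair, labelled shNC there, and 53.2 and 44.5 in the shallower pair. The deeper pair was 2.01-fold higher (log2 difference 0.99, SE 0.250, adjusted p = 0.00855), and this was lost without the deeper A (0.163) and with equal library totals (0.0560). By the labels in the authors' deposited table, the log2 fold change of shG8d over shNC is −1.01 there, against 0.77 and 0.91 at the promoter regions. The 3 uncalled JUP regions had log2 differences of 0.55 (1736 bp), 0.41 (12629 bp) and −0.14 (6420 bp upstream).

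DSP, on chromosome 6, encodes desmoplakin, without which keratin filaments do not attach to desmosomes. Its promoter, 59 bp upstream in the common set, had 113 and 136 normalized counts in the deeper pair, against 91.8 and 68.0 in the shallower pair, without overlap (log2 difference 0.64, SE 0.225, adjusted p = 0.0437). This DSP call was lost without the deeper A (0.120), the deeper B (0.334) or the shallower B (0.139), with quantile normalization (0.0559) and with equal library totals (adjusted p = 0.345). A region 1617 bp into intron 1 of 23, shNC-specific, had 74.1 and 70.2 in the deeper pair, against 37.5 and 34.0 in the shallower pair. The 2 libraries of each pair lay close together there (log2 difference 0.995, SE 0.275, adjusted p = 0.0141). The call was lost without the deeper A (0.137), without the deeper B (0.0888) and with equal library totals (0.0803). The DSP region of highest mean lies 36025 bp upstream and had 245 and 289.7 in the deeper pair, against 233 and 220.3 in the shallower pair (0.23, SE 0.171, adjusted p = 0.344). The remaining 7 DSP regions lay between −0.75 and 0.78, and none passed.

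PKP1, a plakophilin prominent in stratified epithelia, had 12 regions on chromosome 1, more than any other member, and none at its promoter by the definition used. The median was 6 regions per member gene and 2 per symbol over all 19485 symbols. The PKP1 region of highest mean lies 8004 bp upstream in the common set, with 270.1 and 263 normalized counts in the deeper pair, against 167 and 93.7 in the shallower pair. The deeper libraries were close to each other and the shallower far apart, and the log2 difference was 1.09 (SE 0.220, adjusted p = 0.00216). It passed in all settings tried, with the highest adjusted p at 0.0473 without the mean-variance trend, though the difference ranged from 0.67 without the shallower B to 1.498 without the shallower A. In intron 2 of 13, a common region at 12651 bp had 141 and 109.8 in the deeper pair, against 93.0 and 63.3 in the shallower pair (0.69, SE 0.235, adjusted p = 0.0390). The call was lost without the deeper A (0.364), the deeper B (0.0693) or the shallower B (0.151), with quantile normalization (0.0522) and with equal library totals (adjusted p = 0.276). A neighbouring region of PKP1 at 16680 bp had 151 and 122 in the deeper pair, against 96.6 and 85.5 in the shallower pair and missed the threshold (0.57, SE 0.209, adjusted p = 0.0542). The other 9 PKP1 regions lay between −0.68 and 0.37.

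PKP3, a plakophilin found in desmosomes of most epithelia, had 2 regions on chromosome 11, and both are at the promoter. The common one in exon 2 of 14, 159 bp from a start, had 261 and 261 normalized counts in the deeper pair, against 298 and 216 in the shallower pair. The deeper libraries fell between the shallower ones (log2 difference 0.04, SE 0.181, adjusted p = 0.898). The shNC-specific one 788 bp upstream had 81.6 and 75.9 in the deeper pair, against 89.4 and 57.4 in the shallower pair, again with overlap (0.13, SE 0.254, adjusted p = 0.742).

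**Figure D3:**
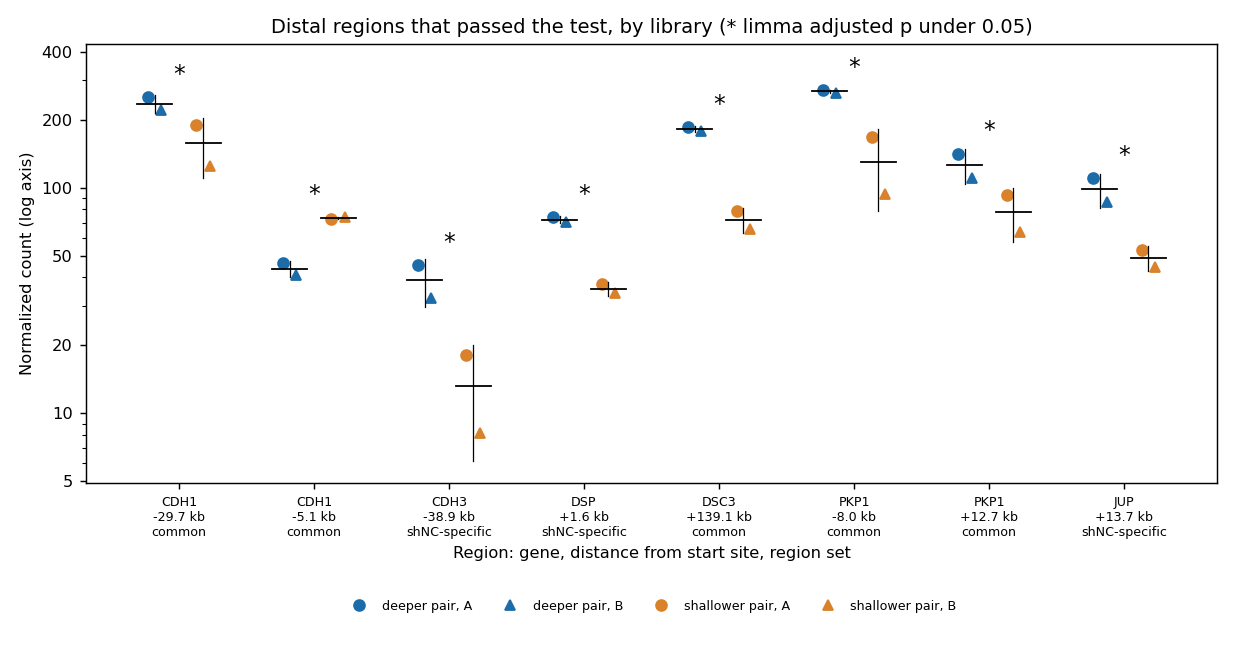
Normalized counts (log axis) of the 8 distal regions that passed, by library, with the deeper pair left of the shallower pair. Horizontal lines are means, vertical lines SD (n = 2 each), and asterisks mark an adjusted p under 0.05 (limma). The region 5082 bp upstream of CDH1 is the single one where the deeper pair is lower (46.3 and 41.2 against 72.5 and 73.8).

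Whether promoter and distal regions of a gene moved apart was tested on the log2 ratio of the highest promoter region to the sum of the distal regions, over 6772 genes with both. None of the 7 members with both passed, where 14.4% of genes were called with the promoter moved up against the distal sum and 7.09% with it moved down. CDH1 was the single member whose unadjusted limma p was under 0.05. Its promoter difference was 0.74 above that of its distal sum (SE 0.287, adjusted p = 0.0838). For DSG2 it was 0.65 (SE 0.327, adjusted p = 0.170), for DSP 0.48 and for JUP 0.43, for DSC3 0.12, for DSG3 −0.04 and for CDH3 −0.24. Without the shallower pair's A, DSG2 passed at 1.09 (adjusted p = 0.00810), and without its B it was 0.21 (adjusted p = 0.631). DSC3 was −0.65 (adjusted p = 0.161) against its distal region of highest mean in place of the sum, −0.12 within the common set and −0.15 without the shallower B. Within the common set JUP was 0.64, DSG2 0.63, DSP 0.50, CDH3 −0.18 and DSG3 −0.21, and no member passed. The CDH1 promoter region is shNC-specific, so the common set alone gave no CDH1 value.

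Summed over all regions of a gene within the common set, DSC3, JUP and PKP1 of 9 genes were higher in the deeper pair, where 14% of all gene sums were called higher, and none was lower, where 17.8% were. The DSC3 sum was 584 and 551 normalized counts in the deeper pair, against 353 and 321 in the shallower pair (log2 difference 0.75, SE 0.112, adjusted p = 0.000136). The JUP sum was 718 and 737 in the deeper pair, against 587 and 416 in the shallower pair (0.56, adjusted p = 0.00433). The PKP1 sum was 838 and 790.0 in the deeper pair, against 670.5 and 586 in the shallower pair (0.38, adjusted p = 0.0118). At these 3 genes all libraries of the deeper pair stood above those of the shallower pair, which adds little, since they are named for passing the test. Of shNC-specific regions 13.2% were called higher and 0.979% lower, and of shG8d-specific ones 0.0363% and 70%. The specific regions of CDH1, JUP and CDH3 are all shNC-specific and that of DSC2 is shG8d-specific. The direction of their specific sums therefore cannot be told apart from that of the set. Within the specific sets CDH1 (0.93, adjusted p = 0.00701), JUP (0.78, adjusted p = 0.0219) and CDH3, with its single region, were higher of 10 genes. DSC2, also a single region, was lower, where 10.9% and 6.01% of the gene sums pooled over both specific sets were called higher and lower. Of these 7 gene sums, that of DSC3 in the common set passed with each library left out, without the trend and with equal library totals (highest adjusted p 0.0194, without the trend). With equal library totals the sums of JUP (0.20, adjusted p = 0.203) and PKP1 (0.02, adjusted p = 0.885) in the common set, and of CDH1 (adjusted p = 0.0579) and JUP (0.156) in the specific sets, did not pass. Without the trend the other 6 did not pass, with adjusted p between 0.0562 and 0.128. The PKP1 sum was lost without the deeper A (adjusted p = 0.168) or B (0.0754). In the specific sets, CDH1 (0.0897 and 0.0825) was lost without the deeper A or B, and so was DSC2 (0.0549 and 0.198). CDH3 was lost without the deeper A (adjusted p = 0.303), the deeper B (0.0862) or the shallower B (0.0505), and JUP likewise (0.243, 0.0596 and 0.0534).

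Of 25 other genes of junctions and of the keratins they hold, 15 had a promoter region. Of these, 4 were higher in the deeper pair and 1 lower, where among all 11487 genes with such a region 20.3% were higher and 10.7% lower. The median log2 difference was 0.13 for the list and 0.14 over all these genes. VCL, encoding vinculin of adherens junctions, had 196 and 219.5 normalized counts in the deeper pair, against 111 and 89.0 in the shallower pair (log2 difference 1.05, SE 0.195, adjusted p = 0.00117, common set). CTNNB1, encoding beta-catenin, which binds the tails of classical cadherins, had 63.1 and 56.5 in the deeper pair, against 38.7 and 15.2 in the shallower pair (1.26, SE 0.373, adjusted p = 0.0202, shNC-specific). EVPL, encoding the plakin envoplakin, had 183 and 145 in the deeper pair, against 105 and 45.7 in the shallower pair (1.22, SE 0.284, adjusted p = 0.00522, common set). The libraries did not overlap at these 3 genes, which adds little, since they are given because they passed the test. Both deeper libraries stood above both shallower ones at 30.5% of all regions. The shallower B was the lowest at each of the 3 genes, and it was below the shallower A at 72.3% of all regions called higher.

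NECTIN1, a cell adhesion molecule of adherens junctions, had 80.8 and 74.2 in the deeper pair, against 55.6 and 32.8 in the shallower pair (0.84, SE 0.286, adjusted p = 0.0385, shNC-specific). DSC1, the third desmocollin gene of the chromosome 18 cluster, had 10.1 and 12.9 in the deeper pair, against 37.5 and 28.1 in the shallower pair (−1.43, SE 0.413, adjusted p = 0.0179). Like that of DSC2, its region is shG8d-specific. Of these 5, VCL and EVPL passed with each library left out. CTNNB1 (adjusted p of 0.139, 0.0707 and 0.146) and NECTIN1 (0.220, 0.127 and 0.203) were lost without the deeper A, the deeper B or the shallower B, and DSC1 without the deeper A (0.176) or B (0.0870). With equal library totals CTNNB1 (adjusted p = 0.0587) and NECTIN1 (0.189) were lost as well. Without the trend CTNNB1 (adjusted p = 0.0606), EVPL (0.0601) and NECTIN1 (0.0834) were lost, and NECTIN1 (0.0821) also when the sets were fitted apart.

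**Figure D4:**
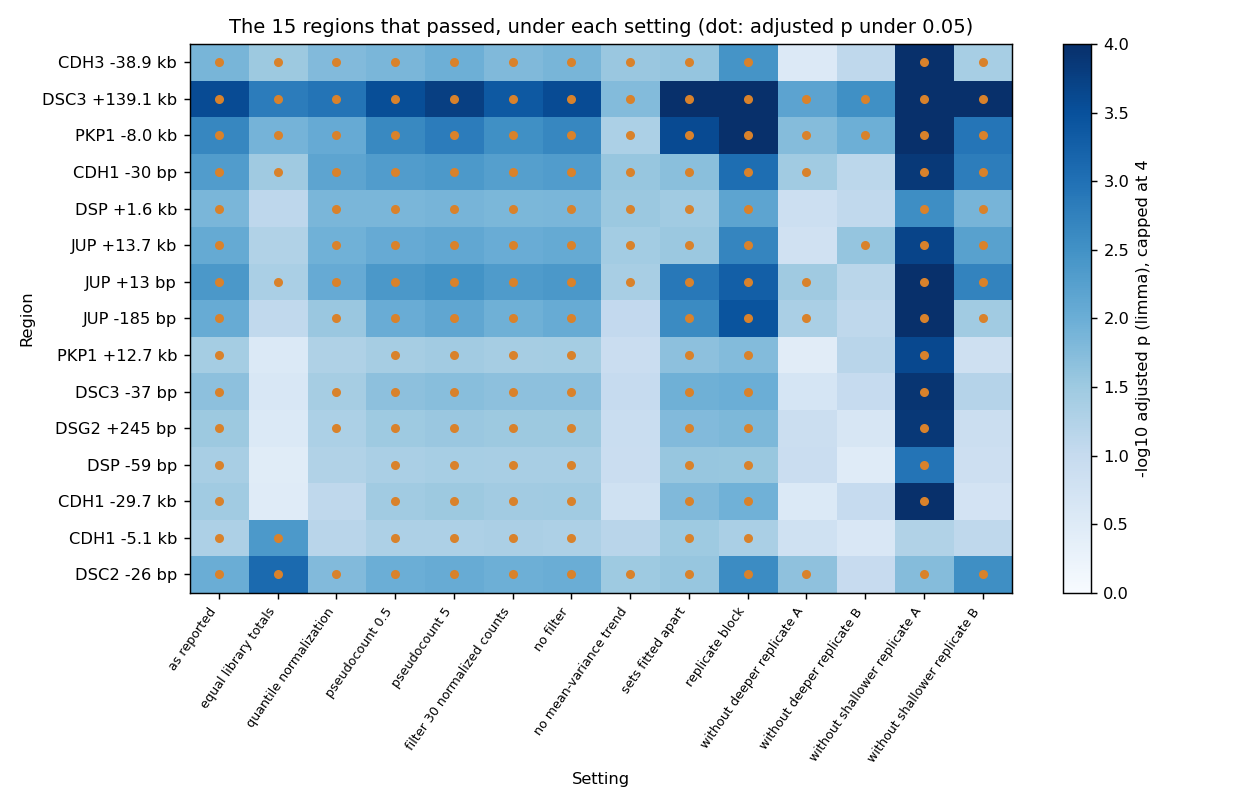
Adjusted p (limma, −log10, colour) of the 15 member regions that passed (rows) under each setting (columns), where a dot marks an adjusted p under 0.05. The DSC3 region 139076 bp downstream and the PKP1 region 8004 bp upstream have a dot in every column, and the column without the deeper replicate B has 3 dots.

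Without the mean-variance trend 8 of the 15 calls were kept, and those lost were both upstream CDH1 regions, the promoters of DSP, DSG2 and DSC3, the JUP region 185 bp upstream and the PKP1 region in intron 2. With quantile normalization 11 were kept, and those lost were both upstream CDH1 regions, the DSP promoter and the PKP1 region in intron 2. In the authors' deposited table, 15 of the 57 member regions had an unadjusted p-value under 0.05, where 24.2% of all regions did, and all 15 of these passed the limma test.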

How the data were processed

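ATAC-seq regions were measured in 4 MCF10A libraries. The authors deposited log10 normalized values per region, with their own log2 fold change and p-value. The submitters' processing notes name CASAVA 1.4 and hg19, with no peak caller or normalization stated in any source at hand. The values were raised to powers of 10. In each column and set they were whole multiples of 1 step (100% within 0.05 reads), and libraries were followed across sets by that step alone, which is an assumption. Ratios of labelled means, as log2, came within 0.00920 of the authors' log2 fold changes.

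Log2(normalized count + 1) of all 58127 regions was tested in R 4.3.3 by limma 3.58.1, whose prior followed a mean-variance trend, Benjamini-Hochberg adjusted p under 0.05. A filter of 10 normalized counts in 2 libraries removed 0 regions. Differences are on this scale, which understates those of low regions. A count of 0 allows up to 3 reads, 2.42 to 3.62 normalized counts. Values were given for every promoter region, every region that passed and the region of highest mean of each gene. Members and lists were chosen with earlier results of these data known.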

Additional observations from a re-analysis of the deposited data

How the results depend on the processing

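Of the 15 member regions that passed, the calls at DSC3 (139076 bp downstream) and PKP1 (8004 bp upstream) held in every setting run. The counts below were 9 higher and 1 lower in the common set, 4 and 1 in the specific sets, and 4 and 1 for the promoters of the junction list. With equal library totals the common set had 3 higher and 4 lower, the specific sets 2 and 4, and the junction list 2 and 2. With quantile normalization the common set had 0 lower. Without the mean-variance trend the common set had 3 higher and 0 lower and the junction list 1 higher. With a filter of 30 normalized counts the junction list had 0 lower, since the filter removed the DSC1 region before the test. Leaving out each library in turn gave 2 to 11 higher and 0 to 1 lower in the common set and 1 to 6 higher and 0 to 2 lower in the specific sets. It gave 2 to 5 higher and 0 to 1 lower in the junction list, and 0 to 1 members in the promoter against distal comparison. The lone library is then assumed to vary like the complete pair. Apart from that of the filter, the cause of these changes was not tested. With the replicate block the common set had 10 higher and the specific sets 5, and no call was lost. Over all regions, the A minus B difference correlated at −0.0039 between the pairs. A single value over all regions cannot tell whether libraries of the same letter share a culture or batch, which is not given.

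With equal library totals, 7 of the 15 calls were kept and 6 regions were newly called, all lower. Over all regions that scaling gave 2580 higher and 16343 lower, against 6477 and 7220. The fit without the trend gave 3668 and 4741. Without the deeper A it was 2046 and 2583, without the deeper B 2476 and 3726, without the shallower A 9742 and 9411, and without the shallower B 6969 and 6779. No called region reversed its direction in the settings run. Pseudocounts of 0.5 and 5, no filter and fitting the sets apart kept all 15 calls, and the last left 3 higher in the junction list. Equal totals for the promoter against distal comparison, and all settings for gene sums, were chosen after seeing the data. A count model on recovered reads was not run. The 4457248 (A) and 4344212 (B) reads in the shallower pair limit the precision of low regions.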
